A study of Homo sapiens with 8 samples.

Results

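Genes that copy DNA and genes that divide the copied chromosomes were examined in 2 human liver cell lines, with and without the inhibitor CM272. A list of 57 such genes was used, chosen by name for their textbook roles but with earlier results of these data known: 30 act in DNA replication and 27 in mitosis. Of these, 45 had a symbol in the annotation of the array platform (22 replication and 23 mitosis genes), among 14884 symbols in all. All 45 passed the filter on dim genes, as did 12239 genes of the platform, and each was read by 1 probe set. The other 12 listed genes (POLA1, POLA2, POLE2, PRIM1, RFC2, RFC3, RFC4, TK1, CENPE, CENPF, TPX2 and ANLN) were not analysed here, so that of the polymerase, primase and clamp genes only PCNA was read.

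HepG2 cells come from a liver tumour, and LX2 cells from hepatic stellate cells, the liver cells that deposit matrix in fibrosis. CM272 inhibits both G9a, a histone methyltransferase, and DNMT1, the maintenance DNA methyltransferase. The 4 groups were HepG2 given 400 nM CM272, HepG2 given 0.1% DMSO (control), LX2 given 400 nM CM272 and LX2 given 0.1% DMSO (control), each with 2 Affymetrix arrays and each read after 48 h. HepG2 cells were kept in 10% serum and LX2 cells in 2%, with penicillin and streptomycin in all wells, so line and serum cannot be told apart in any comparison between the lines. Both are established lines, and a line is 1 genetic background. Whether both arrays of a group stem from separate cultures is not in the labels; p-values then measure only the spread between these samples, which may be technical.

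Replication starts with licensing: CDC6 and CDT1 help load the ring of MCM helicase proteins onto origins, and at S phase entry CDC45 and the GINS proteins join the ring and turn it into a working helicase. In mitosis the cyclins A and B with CDK1 drive entry, the kinases PLK1, AURKA and AURKB build and steer the spindle, the BUB and MAD proteins hold back chromosome separation until every kinetochore is attached, and kinesin motors shape the spindle and the midzone. Replication genes are known for promoters bound by E2F factors, which act at the G1/S border, and mitosis genes for promoters with a CHR element read by the DREAM complex and by B-MYB with FOXM1, which act later in the cycle. Normal hepatocytes and stellate cells rarely divide, while both lines studied here grow in culture.

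The promoters of the 5 genes whose level changed with CM272 (below) are shown so that the elements named above can be looked for in them. Each runs from 250 bases before the RefSeq gene start to 50 after it, on the gene's own strand (RefSeq, GRCh38.p14). Capitals mark matches, on either strand, to an E2F site (TTTGGCGC, TTTCCCGC, TTTCGCGC or TTTGCCGC), to the CHR letters TTTGAA, or to the CCAAT box. No match overlapped a match to another of the motifs in these 5. The windows are chr20:25407423-25407722 (plus strand) for GINS1, chr22:19479670-19479969 (plus strand) for CDC45, chr4:121823834-121824133 (minus strand) for CCNA2, chr15:69414099-69414398 (plus strand) for KIF23 and chr10:92592880-92593179 (plus strand) for KIF11. CDC45 has several RefSeq starts, of which the first listed was taken.
GINS1: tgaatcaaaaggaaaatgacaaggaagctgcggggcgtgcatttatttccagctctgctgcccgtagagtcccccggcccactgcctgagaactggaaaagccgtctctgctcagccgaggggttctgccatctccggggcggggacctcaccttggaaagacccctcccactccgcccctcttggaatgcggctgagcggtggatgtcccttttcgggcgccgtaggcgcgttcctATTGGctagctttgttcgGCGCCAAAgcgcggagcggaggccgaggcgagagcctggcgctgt
CDC45: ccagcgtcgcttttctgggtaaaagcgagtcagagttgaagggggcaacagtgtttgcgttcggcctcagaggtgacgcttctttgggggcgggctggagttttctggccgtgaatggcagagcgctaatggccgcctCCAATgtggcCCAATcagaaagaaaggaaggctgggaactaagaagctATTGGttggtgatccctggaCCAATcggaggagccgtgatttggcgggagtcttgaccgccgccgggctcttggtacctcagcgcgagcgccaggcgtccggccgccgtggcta
CCNA2: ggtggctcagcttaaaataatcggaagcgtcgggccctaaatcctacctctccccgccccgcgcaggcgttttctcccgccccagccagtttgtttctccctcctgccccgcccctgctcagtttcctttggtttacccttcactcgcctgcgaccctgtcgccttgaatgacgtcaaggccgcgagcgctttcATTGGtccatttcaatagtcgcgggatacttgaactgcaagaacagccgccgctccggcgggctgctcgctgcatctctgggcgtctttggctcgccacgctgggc
KIF23: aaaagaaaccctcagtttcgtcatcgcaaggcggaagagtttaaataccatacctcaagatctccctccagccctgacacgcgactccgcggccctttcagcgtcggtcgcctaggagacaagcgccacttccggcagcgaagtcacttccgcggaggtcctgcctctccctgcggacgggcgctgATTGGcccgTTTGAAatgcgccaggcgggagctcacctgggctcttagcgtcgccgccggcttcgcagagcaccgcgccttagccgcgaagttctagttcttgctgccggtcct
KIF11: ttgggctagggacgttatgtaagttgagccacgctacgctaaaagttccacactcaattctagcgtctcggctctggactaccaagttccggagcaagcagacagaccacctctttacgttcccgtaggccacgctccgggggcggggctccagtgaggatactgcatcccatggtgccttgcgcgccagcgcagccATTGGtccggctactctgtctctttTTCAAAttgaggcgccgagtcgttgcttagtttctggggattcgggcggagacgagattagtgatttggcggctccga

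Among these 5 windows, an E2F site was found in that of GINS1, whose protein is a subunit of the helicase, and CHR letters in those of KIF11 and KIF23, which encode spindle kinesins. The CDC45 and CCNA2 windows held no match to the E2F letters listed above or to TTTGAA. Other spellings of these elements were not searched for. All 5 held at least 1 CCAAT box, and the CDC45 window held 4. Promoter entries were found for 38 of the 45 genes, 18 replication and 20 mitosis genes; CCNE2, MCM4, MCM5, E2F8, AURKA, TTK and BIRC5 had none. An E2F site stood in 13 of the 18 replication promoters (72.2%) and 3 of the 20 mitosis promoters (15.0%), against 3.33% of all 27305 gene promoters, which include genes without a protein. The CHR letters stood in 1 of 18 replication promoters (5.56%) and 13 of 20 mitosis promoters (65.0%), against 15.4% of all promoters. The 2 gene sets thus carried different elements, while the CCAAT box was common in both: 72.2% of replication and 85.0% of mitosis promoters held it, against 35.7% of all. A CCAAT box and CHR letters in the same window were found in 60.0% of mitosis promoters and 5.56% of replication promoters, against 6.08% of all. A match describes letters in these windows and does not show binding, and a window with no match says nothing about the factor.

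**Figure D1:**
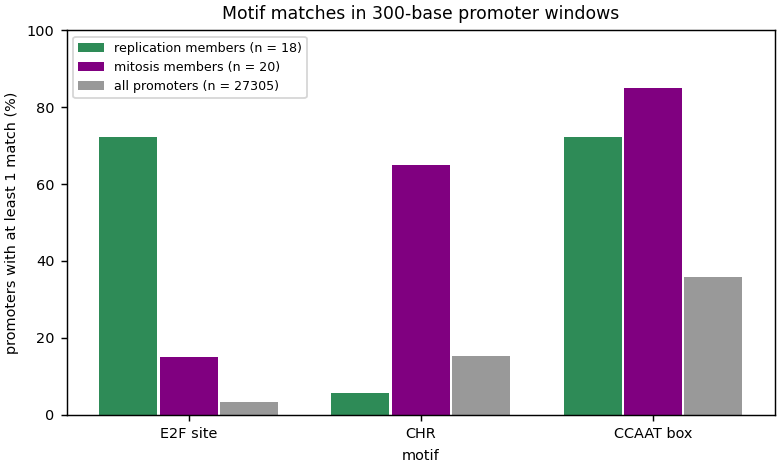
Percent of promoters (vertical axis) that hold an E2F site, the CHR letters TTTGAA or a CCAAT box, on either strand, for the 18 replication genes, the 20 mitosis genes and all 27305 genes with an entry. Bars start at 0. The E2F bar is tallest for replication genes (72.2%), and the CHR bar for mitosis genes (65.0%).

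Array medians over all probe sets lay between 4.19 and 4.25 in the HepG2 arrays and between 4.42 and 4.54 in the LX2 arrays (log2 units). The 2 LX2 CM272 arrays differed most from each other: the median absolute difference between replicates over all tested genes was 0.260 there, against 0.120 in LX2 controls, 0.150 in CM272-treated HepG2 and 0.135 in HepG2 controls. The line labels matched their markers in part. All 12 hepatocyte markers read on the platform exceeded log2 4 in both arrays of either HepG2 group, against 5 in CM272-treated LX2 and 4 in LX2 controls, and ALB averaged 13.2 in HepG2 controls and 3.59 in LX2 controls. Of 7 stellate cell and myofibroblast markers read, 5 exceeded log2 4 in HepG2 and 6 in LX2; VIM averaged 3.67 in HepG2 controls and 10.2 in LX2 controls, but FN1 averaged 12.8 and 11.5. In each line, bulk RNA does not tell fewer dividing cells from less RNA of a gene per cell.

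In LX2 cells given CM272, 5 of the 45 genes changed: CDC45 rose, and GINS1, CCNA2, KIF11 and KIF23 fell, by 1.42- to 1.74-fold. They make up 11.1% of the genes studied, against 8.42% of all 12239 tested genes called in LX2 (3.79% higher and 4.63% lower; limma, two-sided, Benjamini-Hochberg adjusted p under 0.05 over all tested genes). By set, 2 of 22 replication genes passed (9.09%), 1 in each direction, and 3 of 23 mitosis genes passed (13.0%), all lower. The replication share lay near that of the platform, and neither share was tested against it. With a filter at log2 6, which all 45 genes passed, 5 of 23 mitosis genes were called, beside 18% of all tested genes. The median log2 difference of the replication genes was 0.02 and that of the mitosis genes -0.24. Over all tested genes the median was -0.02, and over those past log2 6 it was -0.09. Quantile normalization over the 8 arrays gave the 2 sets medians of 0.12 and -0.16.

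**Figure D2:**
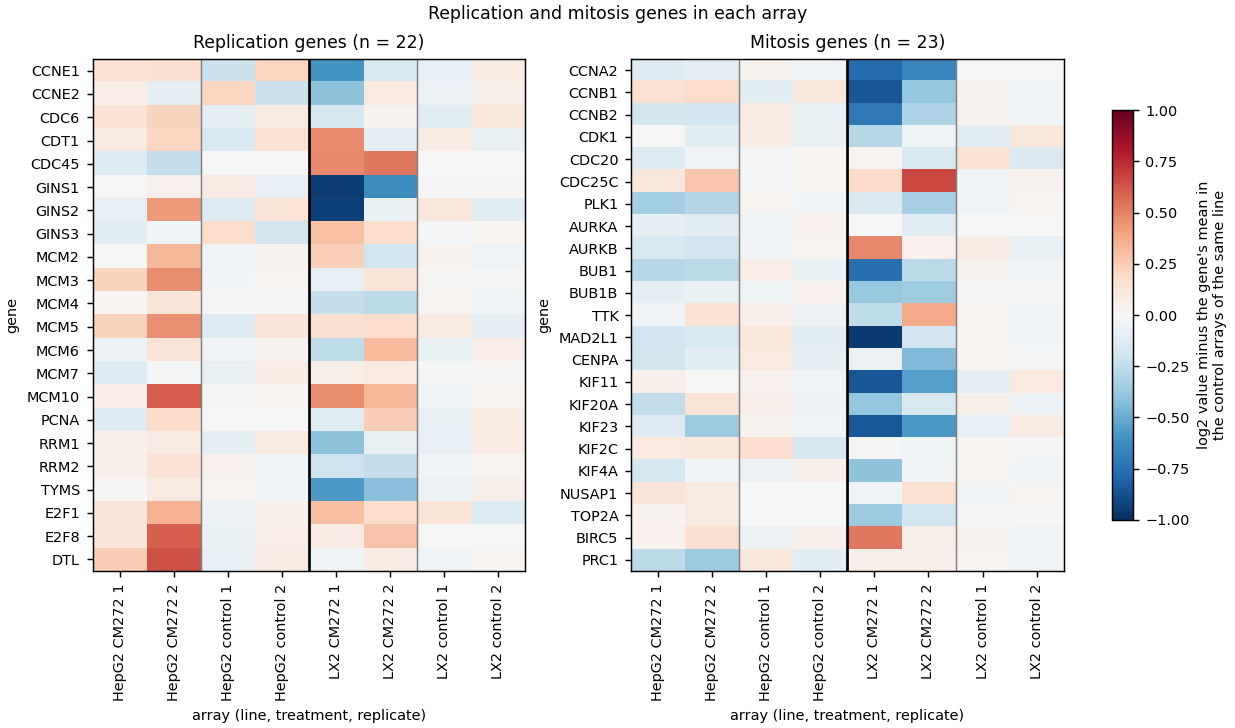
Heat map of the 45 genes (down the page, by set and role) in the 8 arrays (across: HepG2 CM272, HepG2 control, LX2 CM272, LX2 control, 2 arrays each). Colour is the log2 value of an array minus the mean of the control arrays of its line, from -1 to 1. The strongest colours lie in the LX2 CM272 columns, among them GINS1, CCNA2, KIF11 and KIF23 (lower) and CDC45 (higher), and the HepG2 columns are paler.

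Among the helicase activators 1 gene rose and 1 fell. CDC45, which joins the MCM ring to form the active helicase, had log2 levels of 7.92 and 7.96 in CM272-treated LX2, against 7.43 and 7.43 in LX2 controls. Its log2 difference was 0.50 (SE 0.13, 95% interval 0.21 to 0.79, adjusted p = 0.0441 by limma), a 1.42-fold rise. This call is weak: it held in 6 of 17 alternatives and was lost with no filter (adjusted p = 0.0638), with the replicate block (adjusted p = 0.0607) and without any single HepG2 array (0.0181 to 0.237 over all alternatives, by limma). GINS1, a subunit of the GINS complex of the same helicase, had 7.65 and 7.96 in CM272-treated LX2, against 8.58 and 8.61 in controls. It fell by 0.80 (SE 0.15, 95% interval -1.13 to -0.46, adjusted p = 0.0172 by limma), and the groups of both genes did not overlap. GINS2, a further GINS subunit, read 6.06 and 6.93 with CM272, against 7.12 and 6.88 in controls, so its treated arrays lay 0.87 apart and on either side of a control. GINS3 read 8.0 and 7.88 with CM272, against 7.69 and 7.72 in controls, and MCM10, which helps fire licensed origins, read 8.44 and 8.31, against 7.95 and 8.0. Both had higher treated arrays without overlap, at log2 differences of 0.23 and 0.40, but neither passed (adjusted p = 0.386 and 0.208 by limma). The GINS subunits, which work as 1 complex, thus had differences of both signs on these arrays, and of the 5 helicase activation genes only CDC45 and GINS1 passed.

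Of the 8 licensing genes (CDC6, CDT1 and MCM2 to MCM7), 0 passed in LX2, where 8.42% of all genes did; 6 had positive and 2 negative differences, with a median of 0.03. The widest were MCM4 at -0.25 (9.58 and 9.56 with CM272, against 9.85 and 9.79 in controls) and CDT1 at 0.19. CDT1 shows how far the treated arrays could part: it read 8.26 and 7.68 with CM272, against 7.85 and 7.71. CDC6 was at -0.07 and turned to 0.04 under quantile normalization. PCNA, the sliding clamp of the polymerases, differed by 0.06.

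The nucleotide supply genes had negative differences in LX2, none past the test. TYMS, the thymidylate synthase, had 9.83 and 9.98 in CM272-treated LX2, against 10.34 and 10.45 in controls. Its groups did not overlap, and its log2 difference of -0.49 (SE 0.14) just missed the threshold (adjusted p = 0.0543 by limma). RRM1 and RRM2, the subunits of ribonucleotide reductase, were at -0.24 and -0.22. E2F1, an activator of S phase genes, E2F8, a repressor of them, and DTL, the substrate receptor of the CRL4 ligase that destroys CDT1, had positive differences of 0.24, 0.18 and 0.02. E2F1, 1 of the 3 largest positive differences of the replication genes, read 8.67 and 8.55 with CM272, against 8.51 and 8.23. The cyclin E genes, which start S phase with CDK2, were at -0.38 (CCNE1) and -0.15 (CCNE2). CCNE1 read 6.44 and 6.89 with CM272, against 6.96 and 7.12 in controls, lower without overlap.

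Of the mitotic cyclins, CCNA2 fell. This gene encodes cyclin A, which works in S phase and at mitotic entry, and it had 9.25 and 9.36 in CM272-treated LX2, against 10.02 and 10.02 in controls. It fell by 0.71 (SE 0.13, 95% interval -1.01 to -0.42, adjusted p = 0.0151 by limma), a 1.64-fold change with treated arrays that sat close together. CCNB1, the main cyclin B, read 8.57 and 9.05 with CM272, against 9.46 and 9.40 in controls. CCNB2 read 7.48 and 7.89, against 8.23 and 8.17. Both were lower without overlap, but at -0.62 and -0.51 they did not pass (adjusted p = 0.0592 and 0.0835 by limma). Their kinase CDK1 was at -0.17 and CDC20, which activates the anaphase-promoting complex, at -0.06, a value that turned to 0.02 or 0.03 under quantile normalization. CDC25C, the phosphatase that activates CDK1, went the other way without passing: it read 7.83 and 8.31 with CM272, against 7.60 and 7.68, a difference of 0.43 (adjusted p = 0.156 by limma).

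Both falls among the 7 spindle motor and microtubule genes were kinesins. KIF11, the motor that pushes the spindle poles apart, had 9.57 and 9.88 in CM272-treated LX2, against 10.33 and 10.53 in controls. It fell by 0.71 (SE 0.15, 95% interval -1.05 to -0.36, adjusted p = 0.0265 by limma), 1.63-fold. KIF23, a motor of the centralspindlin complex at the midzone, had 9.81 and 10.08 with CM272, against 10.58 and 10.73. It fell by 0.71 (SE 0.16, 95% interval -1.06 to -0.36, adjusted p = 0.0278 by limma), also 1.63-fold. Neither overlapped its controls. The remaining kinesins KIF20A, KIF4A and KIF2C were at -0.27, -0.21 and -0.03, and the last of these turned to 0.07 or 0.08 under quantile normalization. NUSAP1 and PRC1, which bundle microtubules, were at 0.06 and 0.05.

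The 8 mitotic kinase and checkpoint genes (BIRC5 counted here) gave 0 calls in LX2. The checkpoint genes BUB1, BUB1B and MAD2L1 were at -0.51, -0.37 and -0.57 (adjusted p from 0.103 to 0.144 by limma). MAD2L1 had the widest gap between treated arrays of all mitosis genes, with 6.83 and 7.59 against 7.80 and 7.76 in controls. The checkpoint kinase TTK, in contrast, was at 0.06, and its treated arrays of 9.05 and 9.69 lay on either side of the controls at 9.34 and 9.27. AURKB and BIRC5, both members of the chromosomal passenger complex, read higher: AURKB had 10.00 and 9.56 with CM272 against 9.59 and 9.44, and BIRC5 had 9.02 and 8.55 against 8.52 and 8.45. Their differences of 0.26 and 0.29 did not pass (adjusted p = 0.361 and 0.323 by limma), and only AURKB overlapped its controls. PLK1 was at -0.24 and AURKA at -0.06, which turned to 0.03 under quantile normalization. The centromere histone gene CENPA was at -0.25, and TOP2A, which untangles sister chromosomes, at -0.28.

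Counted by arrays, 14 of 23 mitosis genes had both CM272-treated LX2 arrays below both controls, where 28.6% of all tested genes did, and 3 had both above (23.5% of all). Of the 22 replication genes, 5 lay wholly below and 7 wholly above. These genes were read on the same arrays and are not separate replicates of the treatment. The median gene of the mitosis set lay 0.29 and 0.16 below the control mean in the 2 treated LX2 arrays; the median replication gene lay 0.10 below it in the first and 0.08 above it in the second. The small replication median of 0.02 therefore depended on which treated array was read. The first treated array stood further from the controls: without the second, 13 of the 45 genes would be called in LX2 (4 replication and 9 mitosis genes), but 20.4% of all tested genes would be called too. Without either LX2 control array, 0 of the 5 calls held (adjusted p from 0.114 to 0.237 by limma). The HepG2 arrays enter this comparison through the shared variance. When the first treated LX2 array or any HepG2 array was left out, GINS1 and CCNA2 kept their calls each time, CDC45 lost its call each time, and KIF11 and KIF23 kept theirs only without a CM272-treated HepG2 array.

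**Figure D3:**
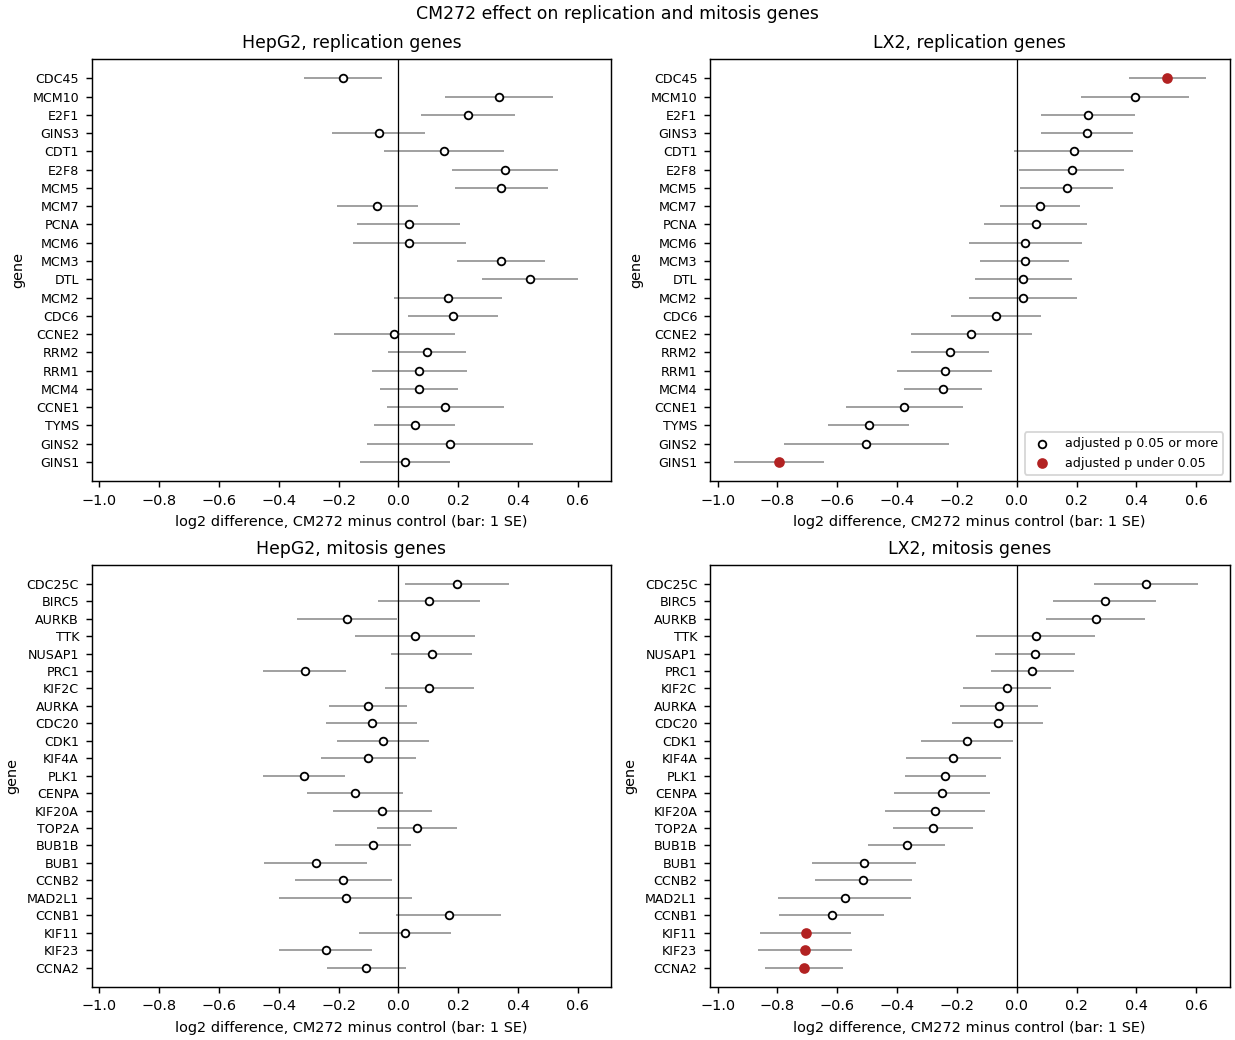
Log2 difference between CM272 and control (horizontal axis) for each of the 45 genes, with bars of 1 SE from limma, HepG2 in the left panels and LX2 in the right, replication genes above and mitosis genes below. Filled red points passed an adjusted p under 0.05: CDC45, GINS1, CCNA2, KIF11 and KIF23 in LX2, and 0 genes in HepG2.

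In HepG2 cells given CM272, 0 of the 45 genes passed the test by limma, where 0.00817% of all tested genes (1 gene, lower) did. At an unadjusted p under 0.05 there were 2 replication genes, both higher, and 2 mitosis genes, both lower, beside 583 higher and 820 lower genes on the whole platform. The lowest adjusted p was 0.357 among replication genes (DTL) and 0.418 among mitosis genes (PLK1). The differences of the replication genes were mostly positive, 18 against 4, with a median of 0.12. Those of the mitosis genes were mostly negative, 15 against 8, with a median of -0.09, while the median of all tested genes was -0.02. Over genes past a filter at log2 6, which all 45 passed, that median was -0.05. Of all tested genes, 6559 differences were negative and 5680 positive. Under quantile normalization over the 8 arrays the mitosis genes were 13 negative and 10 positive, with a median of -0.03, and the replication genes 19 positive and 3 negative, with a median of 0.19.

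The largest positive values belonged to S phase genes. DTL had 8.14 and 8.53 in CM272-treated HepG2, against 7.82 and 7.98 in controls, a difference of 0.44 (SE 0.16). E2F8 had 6.89 and 7.36 with CM272, against 6.70 and 6.84, a difference of 0.36. MCM5 had 7.57 and 7.79 with CM272, against 7.21 and 7.46, a difference of 0.34. All 3 genes, named for their size, were higher in both treated arrays without overlap, where 20.7% of all tested genes were. In each, the second treated array was the higher one. MCM3 and MCM10 were also at 0.34, and MCM3 read 9.22 and 9.46 against 8.96 and 9.02. Of the 8 licensing genes, 7 had positive differences, with a median of 0.16, and the 8th, MCM7, was at -0.07 and turned to 0.02 under quantile normalization. MCM7 read 8.26 and 8.38 with CM272, against 8.32 and 8.46, so its groups overlapped.

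CDC45, the gene that rose in LX2, read 6.12 and 6.02 in CM272-treated HepG2, against 6.25 and 6.26 in controls. It lay lower without overlap, at -0.19 (SE 0.13, adjusted p = 0.63 by limma), and was the only replication gene wholly below its controls in HepG2. GINS1 read 7.72 and 7.76 with CM272, against 7.80 and 7.64, and differed by 0.02. GINS3, at -0.07, read 7.04 and 7.12 within the control values of 7.33 and 6.96, and its sign rested on the first control array, without which it was 0.12. GINS2 was at 0.17, with 6.81 and 7.32 against 6.75 and 7.03. In all, 9 of the 22 replication genes lay wholly above their HepG2 controls, where 20.7% of all tested genes did. Only 1 lay wholly below, where 28.2% of all tested genes did, and 12 overlapped.

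The largest negative values in HepG2 belonged to mitotic regulators. PLK1 had 10.65 and 10.70 in CM272-treated HepG2, against 11.02 and 10.96 in controls, a difference of -0.32 (SE 0.14, adjusted p = 0.418 by limma). PRC1, a microtubule bundler of the midzone, had 8.05 and 7.94 with CM272, against 8.42 and 8.20, a difference of -0.31. BUB1 had 7.26 and 7.28 with CM272, against 7.61 and 7.48, a difference of -0.28. These 3, named for their size, were lower without overlap, where 28.2% of all tested genes were. The mitosis genes that fell in LX2 gave smaller values here: CCNA2 read 8.95 and 8.99 against 9.12 and 9.05 (difference -0.11), KIF23 read 8.17 and 7.94 against 8.33 and 8.26 (difference -0.24), and KIF11 read 8.29 and 8.23 against 8.27 and 8.19 (difference 0.02). CCNA2 and KIF23 lay wholly below their controls and KIF11 overlapped them.

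Among mitosis genes with positive values, CDC25C had 6.43 and 6.60 in CM272-treated HepG2, against 6.31 and 6.34 in controls, a difference of 0.20 (adjusted p = 0.732 by limma). CCNB1 had 7.33 and 7.36 with CM272, against 7.06 and 7.29, a difference of 0.17. NUSAP1 had 8.19 and 8.15 with CM272, against 8.06 and 8.05, a difference of 0.11. Each of these 3, named as the largest rises of the set, was higher without overlap, at sizes that did not pass. Over the set, 12 of the 23 mitosis genes lay wholly below their HepG2 controls, where 28.2% of all tested genes did. A further 4 lay wholly above, where 20.7% of all tested genes did, and 7 overlapped. CDK1 and KIF20A, both at -0.05, turned positive under quantile normalization over the 8 arrays (0.0032 and 0.0112).

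Side by side, 13 of the 23 mitosis genes had negative differences in both lines, 4 positive in both, and 6 opposite signs. Of the 22 replication genes, 1 (CCNE2) was negative in both, 10 positive in both, and 11 opposite. Over all 12239 tested genes, 6431 differences were negative in LX2 and 6559 in HepG2, and signs shared by both lines were not counted there. These counts depend on scaling. Under quantile normalization over the 8 arrays, AURKA, CDC20, KIF2C and CDC6 turned positive in LX2, and CDK1, KIF20A and MCM7 in HepG2. No gene passed in both lines. The test of the difference itself (the CM272 effect in HepG2 minus that in LX2) passed for 0 of the 45 genes by limma, where it passed for 1.18% of all tested genes. At an unadjusted p under 0.05 it gave 5 higher and 1 lower of the 45, beside 1083 higher and 1070 lower of all 12239 tested genes. This comparison uses the same arrays as the comparisons within each line, so its values are not separate evidence.

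GINS1 had the lowest adjusted p of this test, with an effect 0.82 higher in HepG2 than in LX2 (SE 0.21, 95% interval 0.34 to 1.30, adjusted p = 0.0966 by limma). For CDC45 the HepG2 effect lay lower, by -0.69 (95% interval -1.10 to -0.28, adjusted p = 0.101 by limma). These intervals are not adjusted for the number of genes. Among mitosis genes the effect was higher in HepG2 by 0.79 for CCNB1 (adjusted p = 0.145), 0.73 for KIF11 (adjusted p = 0.127) and 0.61 for CCNA2 (adjusted p = 0.134, all by limma). GINS2 and TYMS were at 0.68 and 0.55, since GINS2 was at 0.17 in HepG2 and -0.50 in LX2, and TYMS at 0.05 in HepG2 and -0.49 in LX2. TYMS read 9.03 and 9.10 in CM272-treated HepG2, against 9.04 and 8.99 in HepG2 controls. On the negative side stood GINS3 at -0.30, MCM7 at -0.15, AURKB at -0.44, PRC1 at -0.37 and CDC25C at -0.24. AURKB read 8.13 and 8.08 in CM272-treated HepG2, against 8.25 and 8.30 in HepG2 controls. Its difference in LX2 had the opposite sign, but its arrays overlapped there. The gaps thus came from different patterns: GINS1 and KIF11 were lower in treated LX2 and overlapped their controls in HepG2, CCNB1 was lower in treated LX2 and wholly above its HepG2 controls, and CDC45 was higher in treated LX2 and wholly below its HepG2 controls. The test did not set any of the 45 apart.

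Without CM272, in the DMSO controls, the 2 lines differed in nearly every gene of the list. In HepG2 controls against LX2 controls, 42 of the 45 genes passed (93.3%), 41 of them lower in HepG2, where 58.1% of all tested genes passed (40.5% lower and 17.7% higher). The median log2 difference was -1.31 for replication genes and -1.33 for mitosis genes, against -0.27 over all tested genes, so the sets lay 1.04 and 1.06 below the platform's median. Quantile normalization over the 8 arrays moved the median of all tested genes to -0.01 and the split of all calls to 3206 higher and 3571 lower, against 2161 higher and 4952 lower as deposited. The medians of the sets were then -1.05 and -1.10, with 17 of 22 replication and 20 of 23 mitosis genes lower past the test. As deposited, both HepG2 arrays lay below both LX2 arrays for 42 of the 45 genes (20 replication and 22 mitosis genes), where 55.8% of all tested genes did, and above them for CCNE1 and PLK1, where 27.6% did.

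**Figure D4:**
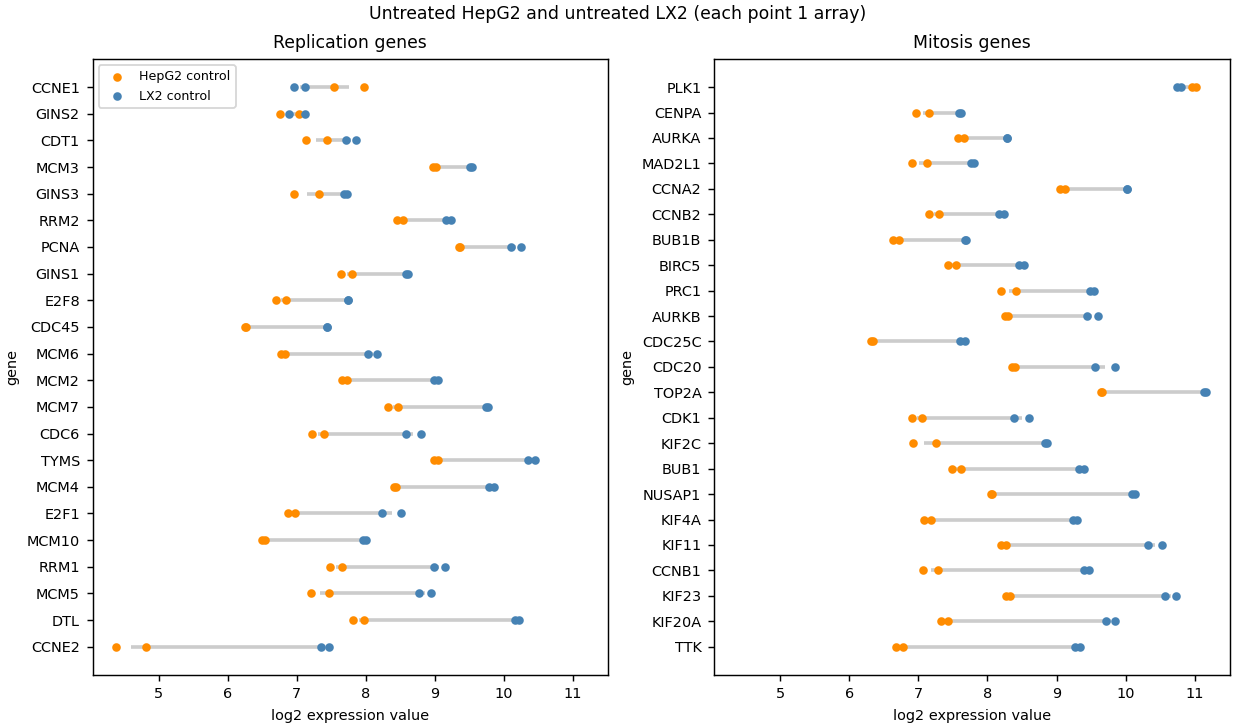
Log2 level of each of the 45 genes in the 2 HepG2 control arrays and the 2 LX2 control arrays, 1 point per array. The HepG2 points lie left of the LX2 points for nearly every gene; CCNE1 and PLK1 are the exceptions, and the GINS2 points overlap.

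The cyclin E genes split between the lines. CCNE1 had 7.54 and 7.97 in HepG2 controls, against 6.96 and 7.12 in LX2 controls, 0.71 higher (SE 0.19, adjusted p = 0.0106 by limma), and was the only gene of the 45 that passed as higher in HepG2. Its call was lost without the second HepG2 control array (log2 difference 0.50) or the first LX2 control array (0.63). CCNE2 had 4.82 and 4.38 in HepG2 controls, against 7.35 and 7.47 in LX2 controls, a log2 difference of -2.81 (SE 0.20, adjusted p = 1.9e-06 by limma), and no other gene of the list differed more. The HepG2 values of CCNE2 lay near the brightness filter of log2 4, where array folds are compressed. DTL had 7.82 and 7.98 in HepG2 controls, against 10.16 and 10.22 in LX2 controls, a difference of -2.30 (adjusted p = 1.58e-06 by limma). MCM5 had 7.21 and 7.46 in HepG2 controls, against 8.94 and 8.76, a difference of -1.51. Of the 22 replication genes, 19 were lower in HepG2 and passed. CDT1 (7.13 and 7.44 against 7.85 and 7.71) was at -0.50 and just missed the threshold (adjusted p = 0.0574 by limma). GINS2 (6.75 and 7.03 against 7.12 and 6.88) was at -0.11 and turned to 0.16 under quantile normalization over the 8 arrays.

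Of the mitosis genes, 22 of 23 were lower in HepG2 controls and passed. All 7 spindle motor and microtubule genes passed, with a median of -2.13, the widest of the role groups with more than 1 gene. KIF20A, a kinesin of cytokinesis, had 7.43 and 7.32 in HepG2 controls, against 9.84 and 9.72 in LX2 controls, a difference of -2.40. KIF23 differed by -2.36 and KIF11 by -2.19. The checkpoint kinase TTK had 6.78 and 6.68 in HepG2 controls, against 9.34 and 9.27, a difference of -2.58 (SE 0.20, adjusted p = 3.12e-06 by limma), the widest of the mitosis set. NUSAP1, at 8.06 and 8.05 against 10.09 and 10.13, gave the lowest adjusted p (9.67e-07 by limma). PLK1 was the exception, with 11.02 and 10.96 in HepG2 controls, against 10.74 and 10.80 in LX2 controls, a difference of 0.22 that did not pass (adjusted p = 0.193 by limma). It was alone in the mitosis set in having HepG2 arrays above both LX2 arrays.

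The comparison of the lines was repeated on the CM272-treated arrays, a comparison added after the data had been seen. Treated HepG2 against treated LX2 gave 38 lower genes (18 replication and 20 mitosis genes) and 1 higher, CCNE1. Of all 12239 tested genes 59.9% passed, 5111 lower and 2215 higher. The medians were -1.10 for replication and -1.47 for mitosis genes, against -0.29 over all tested genes. GINS1 no longer differed past the test between the treated lines, with means of 7.74 in HepG2 and 7.80 in LX2 and a difference of -0.06 (adjusted p = 0.75 by limma), while the controls differed by -0.88 (adjusted p = 0.000727 by limma). CCNA2 was at -0.33 between the treated lines (adjusted p = 0.0505 by limma) and at -0.94 between the controls. CCNE1 was at 1.24 between the treated lines, and TTK at -2.58.

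Further genes of the same pathways, from 3 lists drawn up by role, were set beside the 45. In LX2, 3 of 24 other replication genes fell with CM272 and 0 rose: DNA2, a nuclease that trims Okazaki fragments, by 0.98, CDCA7, a factor tied to maintenance of DNA methylation, by 0.81, and DBF4, the activator of the CDC7 kinase that fires origins, by 0.77. Of 58 other mitosis genes, 8 fell and 1 rose. The largest falls were SKA1, a kinetochore protein, by 0.98, PTTG1 (securin, the inhibitor of separase) by 0.93, DEPDC1B by 0.93 and STIL, a centriole protein, by 0.83, and the rise was OIP5, which loads CENPA, at 0.60. The median of these 58 was -0.26, and 43 had negative differences. Over all 12239 tested genes, 6431 were negative and the median was -0.02, or -0.09 over those past log2 6. Of 23 brakes and G1 regulators, 3 fell: CCNG1, a p53 target, by 0.92, WEE1, the kinase that holds back CDK1, by 0.78 and RBL1, a pocket protein of the DREAM complex, by 0.61. LIN52, a subunit of DREAM and of the B-MYB complex, rose by 0.76. The lists' calls thus came to 12.5%, 15.5% and 17.4% of their genes, against 8.42% of the platform. The calls of these lists were lost without either LX2 control array, and calls over all tested genes fell there too. Both were fewer without either HepG2 control array or without the first treated LX2 array. Without the second treated LX2 array both were more numerous, so this rise was not particular to these lists.

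In HepG2, 0 genes of these 3 lists passed by limma, with 1, 3 and 2 lower and 1, 0 and 0 higher at an unadjusted p under 0.05 (other replication, other mitosis, brakes and G1 regulators). At that level 820 of all 12239 tested genes were lower and 583 higher. The widest values were EXO1 at 0.62 and CDC25A at -0.41, ARHGAP11A at -0.56 and ECT2 at -0.54, and E2F3 at -0.55 and CCNG2 at 0.36. In the difference between lines, DEPDC1B alone passed, at 1.11 (SE 0.20, adjusted p = 0.0384 by limma). DNA2 at 1.22 and CCNG1 at 0.99 did not (adjusted p for DNA2 = 0.0826 by limma). Between the untreated lines, 21 of 24 other replication genes and 54 of 58 other mitosis genes were lower in HepG2 and passed, where 40.5% of all tested genes did, led by E2F7 at -2.93, CENPI at -4.01 and CEP55 at -3.18. The brakes and G1 regulators were mixed, with 12 lower (CDKN3 at -3.25, RBL1 at -1.87 and RB1 at -1.73 among them). Of these regulators 2 were higher, 1 of which was MYC at 2.12. Their 14 calls of 23 (60.9%) lay near the 58.1% of all tested genes.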

How the data were processed

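Total RNA was amplified, biotin-labelled and hybridised to Affymetrix whole-transcript arrays, 8 arrays in 4 groups of 2. The deposited table holds log2 expression per probe set, which the authors made with RMA, per the submitters' processing notes (its version is not given in the sources used here). RMA compresses the folds of dim genes. The deposited arrays did not share 1 distribution, since their medians lay lower in HepG2 than in LX2. Arrays give no counts, so their number limits the precision.

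Of 48416 probe sets, 16098 had 1 symbol in the platform annotation. The probe set with the highest mean stood for each symbol, and genes over log2 4 in both arrays of at least 1 group were tested. limma 3.58.1 (R 4.3.3) was fitted to all 8 arrays with 1 mean per group (4 residual and 5.47 prior degrees of freedom), two-sided, with Benjamini-Hochberg adjustment over 12239 genes and a threshold of 0.05. An exact permutation test of 2 arrays against 2 cannot go below p = 0.333, so none was used. Medians, signs and counts over a list describe it and carry no test.

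The members and lists were chosen with earlier results of these data known. Values in every array are given for genes that passed in a CM272 comparison or in the difference between lines, and for up to 3 largest differences each way per set and comparison; a few others are given to show spread or as named subunits. Up to 4 passing genes, or 2 where none passed, are named per further list. Promoters shown are up to 3 of the called genes per set. RMA values were used as deposited; the alternatives were other filters, quantile normalization, array weights, a replicate block, a trended robust prior, probe set means, single-line fits and leaving out each array. The fitting was tested on simulated data. Leukocyte markers (7 on the platform) exceeded log2 4 in 5 or 6 per group, and endothelial markers (8) in 2 to 3 in HepG2 and 4 to 5 in LX2. Figures were drawn with matplotlib 3.10.9.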

Additional observations from a re-analysis of the deposited data

Results flagged for a closer look

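DEPDC1B, a mitosis gene outside the list of 45, had a CM272 effect that differed between the lines by the test of the difference, at 1.11 (HepG2 minus LX2, log2 scale, adjusted p = 0.0384 by limma). It read 7.39 and 7.64 in CM272-treated HepG2, against 7.34 and 7.31 in HepG2 controls, and 6.52 and 6.54 in CM272-treated LX2, against 7.53 and 7.38 in LX2 controls. The treated arrays lay above both controls in HepG2 and below both in LX2. Over 16 alternatives the adjusted p ran from 0.0148 to 0.179, and 7 of them kept the call. Groups of 2 arrays are too small for a check of single arrays that stand apart.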

How the results depend on the processing

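With 2 arrays a group, the calls in LX2 were the results that depended most on the processing. Mitosis genes called in LX2 (3) came to 0 both under array weights and when each line was fitted alone, and to 5 with a filter at log2 6 or with a trended robust prior. The share of all tested genes called in LX2 was, in that order, 2.31%, 1.62%, 18% and 11.2%, against 8.42%. Replication genes called in LX2 (2) came to 1 with array weights, 1 with no filter and 0 with each line fitted alone. With the replicate block they also came to 1, since CDC45 then had an adjusted p of 0.0607 by limma; the labels do not say that numbers pair the arrays, same-numbered arrays correlated by -0.054 to 0.077 in their deviations, and the block ended 1 more named call, DEPDC1B between lines (adjusted p = 0.0562). Replication genes whose effect differed between lines (0) came to 2, GINS1 and CDC45, with a filter at log2 6. There 5.25% of all tested genes passed, against 1.18%. Over the 17 alternatives for each LX2 call, CCNA2 kept it in 13, GINS1 in 14, KIF11 and KIF23 in 10 and CDC45 in 6.

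Quantile normalization over the 8 arrays or within each line gave replication medians of 0.12 and 0.12 in LX2 and mitosis medians of -0.0271 and -0.0263 in HepG2, and within each line a replication median of 0.20 in HepG2. Between the lines it gave medians of -1.05 (replication) and -1.10 (mitosis) over the 8 arrays, and the treated lines, compared after the data were seen, gave -1.10 and -1.47. MCM7 in HepG2 changed sign to 0.02 under quantile normalization over the 8 arrays (0.0166) or within each line (0.0173) and to 0.001 without HepG2 control replicate 2 (leave-one-out range -0.1417 to 0.001). GINS3 in HepG2 changed sign to 0.12 without HepG2 control replicate 1 (range -0.2465 to 0.1152), and the CDC25C difference between lines to 0.0024 without LX2 CM272 replicate 2 (range -0.4748 to 0.0024). The cause was not tested.

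Leaving out 1 array at a time gave 0 to 9 mitosis and 0 to 4 replication genes called in LX2, lowest without either LX2 control array and highest without LX2 CM272 replicate 2; medians ran from -0.288 to -0.1624 (mitosis) and -0.1014 to 0.0838 (replication). In HepG2 0 were called throughout, with medians of -0.1271 to -0.0675 and 0.0478 to 0.1808. Between the effects, 0 to 3 mitosis and 0 to 1 replication genes were called, with medians of 0.0443 to 0.29 and 0.13 to 0.30. Between untreated lines 20 to 22 mitosis and 17 to 21 replication genes were called, with medians of -1.40 to -1.31 and -1.34 to -1.25. All genes called in LX2 (464 higher, 567 lower) came to 139 and 144 with array weights, 132 and 66 with each line fitted alone, 426 and 847 with a filter at log2 6, 82 and 16 or 51 and 5 without LX2 control replicate 1 or 2, and 906 and 1587 without LX2 CM272 replicate 2. A group left with 1 array was assumed to vary like the other groups.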
